A study of Arabidopsis thaliana with 12 samples.

Results

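Transcript signals of 2 Calvin cycle enzymes and 1 plastid sugar phosphate transporter were compared between the ppi1 mutant and the wild type (WT) of Arabidopsis thaliana. The enzymes are phosphoribulokinase (PRK, AT1G32060) and sedoheptulose bisphosphatase (SBPASE, AT3G55800), and the transporter is the xylulose phosphate translocator AT5G17630. Each gene was taken where an array feature was annotated to it alone, which gave 3 features, 1 per gene, of 3439 on the array. The study hybridised total RNA of 6 ppi1 samples and 6 WT samples to 12 arrays, and both genotypes are of ecotype Columbia 0. The ppi1 mutation lies in TOC33, whose product recognises precursor proteins at the chloroplast surface, and the study asks how transcript levels differ when their import is defective. The sources used here state neither tissue, plant age, growth conditions nor array type, and the labels leave unsaid whether replicates are separate plants. The p-values therefore measure a spread between samples that may be technical.

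The Calvin cycle fixes CO2 in the chloroplast stroma and then rebuilds its acceptor, ribulose bisphosphate, from triose phosphates. SBPASE and PRK both act in this regeneration: SBPASE removes a phosphate from sedoheptulose bisphosphate, and PRK phosphorylates ribulose phosphate in the step that forms the acceptor. Both enzymes are activated in the light through thioredoxins, and PRK is held inactive in the dark in a complex with glyceraldehyde phosphate dehydrogenase and the small protein CP12. The xylulose phosphate translocator sits in the inner plastid envelope, where it exchanges pentose and triose phosphates for inorganic phosphate and so links the stromal pentose phosphates with those of the cytosol. All 3 proteins are encoded in the nucleus, made in the cytosol as precursors and imported into the plastid.

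Signals were lower in ppi1 than in WT for PRK and AT5G17630, while SBPASE differed little on average. PRK stood at 56.5% and AT5G17630 at 65.1% of the WT level, with SBPASE at 91.5%, each from the difference of group means on the log2 scale after quantile normalisation. In RNA of whole samples, fewer cells that express a gene and less of its RNA per cell cannot be told apart. The 3 genes were chosen by pathway with these same ppi1 and WT levels already known, so the measured contrast entered the choice and their differences between genotypes are a description, given with a standard error and no p-value. In the fit over all 3365 features tested (limma, Benjamini-Hochberg adjusted p under 0.05), 2 of the 3 features were called lower in ppi1, PRK and AT5G17630, and 0 higher. The background was 5.29% of all features called lower, 3.15% called higher and 8.44% called in either direction, and nothing is read from the count of members against it. With the replicate number as a block, 15.4% of features were called, and the calls of the 3 genes did not change. Other fits lost calls: PRK was not called with neighbouring replicates as a random block, in the exact permutation test or in 8 of the 12 fits without 1 array (without WT replicates 1, 2, 5 or 6, or ppi1 replicates 3, 4, 5 or 6), and neither PRK nor AT5G17630 was called with neighbouring replicates averaged. Of all 3365 features, these fits called 99 (random block), 205 (exact permutation test), 222 to 277 (without 1 array) and 4 (averaged). The 205 include 133 called lower, as many as had every ppi1 array below every WT array, so that test repeats the overlap of the groups.

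The arrays themselves set limits on these values. Summed deposited intensities were 3598 to 3689 on the ppi1 arrays and 3380 to 3582 on the WT arrays, so the scaling of arrays touches every difference between genotypes. Replicates 1 and 2, 3 and 4, and 5 and 6 of a group lay close together: the median absolute log2 difference over all features was 0.110 to 0.122 within these sets in ppi1 and 0.0861 to 0.0892 in WT, against 0.187 to 0.314 between other ppi1 arrays and 0.158 to 0.222 between other WT arrays. The labels do not say what neighbouring replicates share. None of the 19 listed loci of the chloroplast import machinery, TOC33 among them, had a feature of its own, so the targeted gene could not be used to check the labels. The 10 loci listed as markers of non-green or senescent tissue had 0 such features, and the tissue could not be checked either.

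PRK carried the largest difference of the 3 genes. Its quantile-normalised intensity in the 6 ppi1 arrays had a lowest value of 0.653, a median of 0.768 and a highest of 1.35, and in the 6 WT arrays a lowest of 1.003, a median of 1.58 and a highest of 1.91. The groups overlapped through 1 ppi1 array, replicate 1, at 1.35, which lay above WT replicate 3 (1.003) and WT replicate 4 (1.16), whereas the other 5 ppi1 arrays lay below every WT array. PRK averaged 0.842 ± 0.254 in ppi1 and 1.48 ± 0.335 in WT (SD, n = 6 each), a log2 change of -0.82 (SE 0.200). That change ranked 31 from the lowest among the 3365 features. Without ppi1 replicate 1 the change was -0.97.

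SBPASE, the other enzyme of the regeneration phase, spread more widely in ppi1 than in WT. The 6 ppi1 arrays had a lowest value of 0.647, a median of 0.761 and a highest of 1.26, and the 6 WT arrays a lowest of 0.828, a median of 0.874 and a highest of 1.12. In ppi1, 4 arrays (replicates 1 to 4) lay below the whole WT range, replicate 5 lay inside it at 1.08, and replicate 6 was above it. On the log2 scale the SD was 0.401 in ppi1 and 0.167 in WT. The means were 0.860 ± 0.253 in ppi1 and 0.914 ± 0.112 in WT (SD, n = 6 each), which gave a log2 change of -0.13 (SE 0.170), smaller than its own standard error. Neither fit shows that SBPASE was equal in both genotypes.

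AT5G17630, the xylulose phosphate translocator, was the only one of the 3 whose groups did not overlap after quantile normalisation. The ppi1 arrays had a lowest value of 0.581, a median of 0.700 and a highest of 0.927, and the WT arrays a lowest of 1.04, a median of 1.08 and a highest of 1.28. Of all features, 3.95% had every ppi1 array below every WT array in the same way. AT5G17630 averaged 0.741 ± 0.152 in ppi1 and 1.12 ± 0.0990 in WT (SD, n = 6 each), a log2 change of -0.62 (SE 0.125). Whether the groups overlapped depended on the scaling. In deposited units the highest ppi1 array reached 1.01 and the lowest WT array 0.953, so that the groups overlapped, while with median scaling they stayed apart, at 0.582 to 0.914 in ppi1 and 1.09 to 1.37 in WT. On the deposited scale 1.9% of all features had ppi1 wholly below WT, and with median scaling 6.78% did. All 3 features lay well above the floor of 0.118 that was set for dim signals, with their lowest arrays at 5.54 times the floor for PRK, 5.49 times for SBPASE and 4.93 times for AT5G17630.

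**Figure D1:**
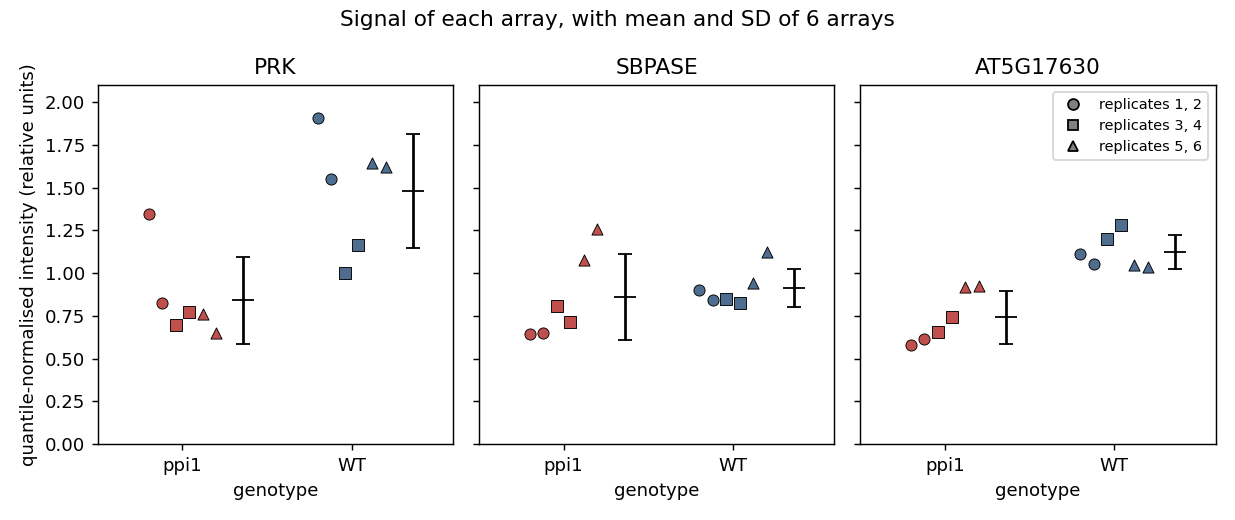
Quantile-normalised intensity (relative units) of PRK, SBPASE and AT5G17630 on each array, ppi1 left of WT, with marker shapes for neighbouring replicate numbers and bars for the mean ± SD of 6 arrays. PRK overlaps between genotypes only through ppi1 replicate 1 (1.35), SBPASE is spread from 0.647 to 1.26 in ppi1, and all AT5G17630 values of ppi1 (0.581 to 0.927) lie below those of WT (1.04 to 1.28).

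The difference between genotypes was uneven over the replicate numbers. In replicates 5 and 6 it was most negative for PRK, but least negative for AT5G17630 and positive for SBPASE. Same-numbered ppi1 and WT arrays were set against each other, since these deviated together from their group means over all features. For PRK, ppi1 was lower in 6 of 6 numbers, at 40.3% to 70.6% of WT. The largest PRK differences were in replicates 5 (log2 difference -1.11) and 6 (-1.31), where ppi1 read 0.762 and 0.653 and WT 1.64 and 1.62.

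AT5G17630 was arranged the other way round. Its ppi1 signal was 52.2% to 58.4% of WT in replicates 1 to 4 (log2 differences of -0.94, -0.78, -0.87 and -0.78), but 88.1% in replicate 5 (-0.18) and 89.5% in replicate 6 (-0.16). In replicates 5 and 6, 25.9% and 27.9% of all features had a lower log2 difference than AT5G17630, against 1.49% to 3.15% in replicates 1 to 4. The transporter's mean change therefore comes mainly from replicates 1 to 4, and on the deposited scale its difference was slightly positive in replicates 5 (0.04) and 6 (0.08).

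SBPASE changed sign over the numbers. ppi1 was lower in 4 of 6 numbers, by 0.48 and 0.37 on the log2 scale in replicates 1 and 2, and at -0.06 and -0.22 in replicates 3 and 4. In replicates 5 and 6 the SBPASE signal was higher in ppi1, at 0.19 and 0.16, or 114% and 112% of WT. On the deposited scale only replicates 1 and 2 had a lower ppi1 signal for SBPASE.

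**Figure D2:**
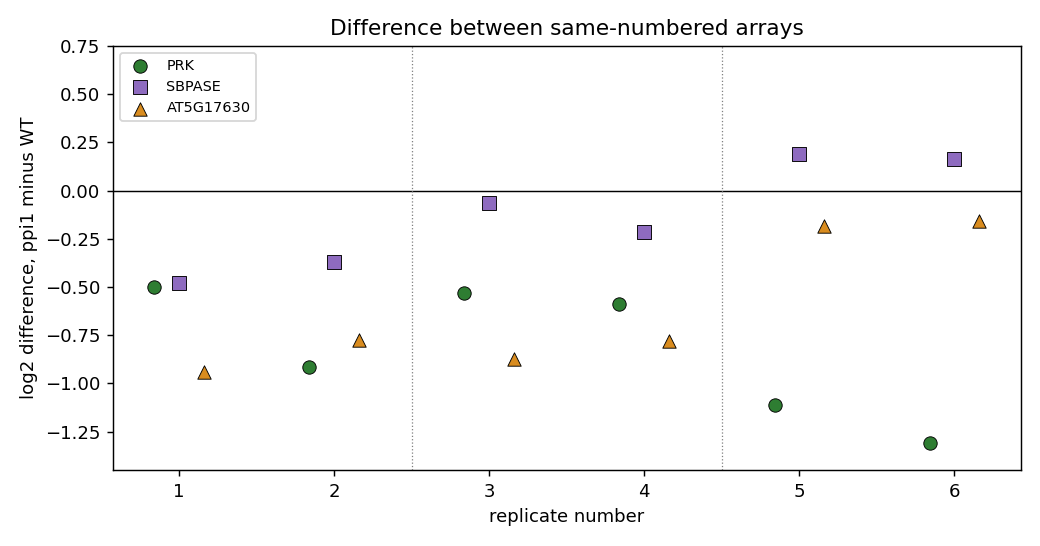
Log2 difference of quantile-normalised intensity, ppi1 minus WT, between arrays of the same replicate number for the 3 genes, with dotted lines between replicates 1 and 2, 3 and 4, and 5 and 6. In replicates 5 and 6 PRK has its most negative values (-1.11 and -1.31), AT5G17630 its smallest differences (-0.18 and -0.16), and SBPASE positive ones (0.19 and 0.16).

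Averaged over neighbouring replicates, the same order of values appeared with 3 differences per gene. For PRK these were -0.71 in replicates 1 and 2, -0.56 in replicates 3 and 4, and -1.21 in replicates 5 and 6. For SBPASE they were -0.42, -0.14 and 0.18, and for AT5G17630 -0.86, -0.83 and -0.17. The SD of the 6 log2 differences was 0.339 for PRK, 0.275 for SBPASE and 0.352 for AT5G17630, against a median of 0.212 over all features. Of all features, 75.7%, 65.5% and 77.7% had a smaller SD than PRK, SBPASE and AT5G17630, so such unevenness was not unusual on these arrays. If neighbouring replicates are taken as 1 value, each group has 3 values, the standard errors widen to 0.254 for PRK, 0.244 for SBPASE and 0.182 for AT5G17630, and 0 of the 3 genes were called in limma (2 at an unadjusted p under 0.05). In that fit 4 of all 3365 features were called and 398 were at an unadjusted p under 0.05. Few features of any kind kept a call, and nothing is read from the counts of the 3 genes.

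**Figure D3:**
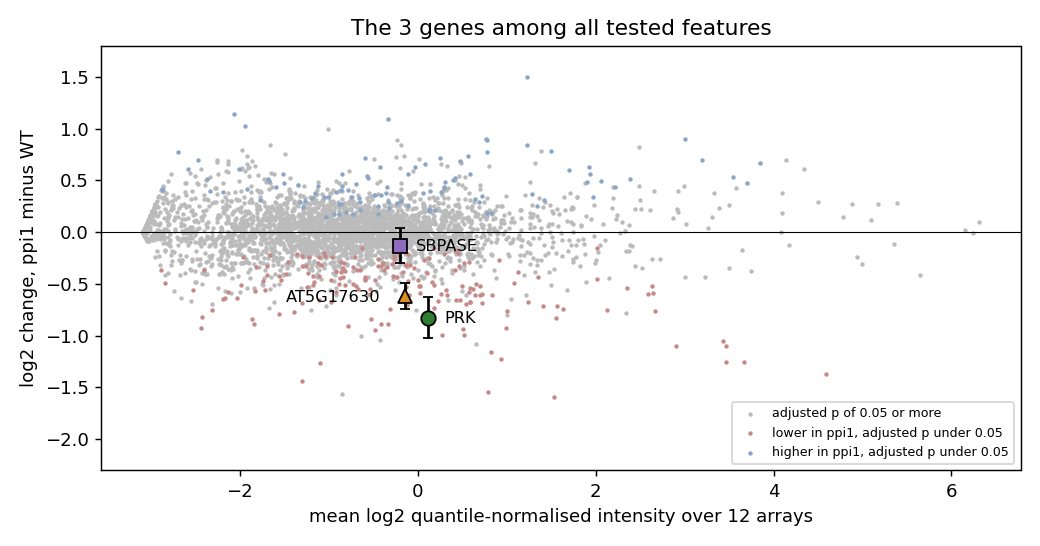
Log2 change (ppi1 minus WT) against mean log2 quantile-normalised intensity for the 3365 tested features, with colour for the call in limma and bars of ± SE on the 3 genes. SBPASE (-0.13) lies within the bulk of features, while AT5G17630 (-0.62) and PRK (-0.82) lie at its lower edge.

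In 1 of its neighbouring sets PRK spread widely: its ppi1 replicates 1 (1.35) and 2 (0.823) differed by 0.710 on the log2 scale, while neighbouring ppi1 arrays differed by at most 0.222 for SBPASE and 0.188 for AT5G17630. The smallest such difference of PRK in ppi1 was 0.157, above the medians over all features of 0.110 to 0.122. In WT its neighbouring arrays differed by 0.0225 (replicates 5 and 6) to 0.299, against medians of 0.0861 to 0.0892. Within WT, PRK was low in replicates 3 (1.003) and 4 (1.16) and lay at 1.55 to 1.91 in the other arrays. AT5G17630 was highest in those same WT arrays, replicates 3 (1.20) and 4 (1.28).

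Deviations from the group means, which leave the genotype contrast aside, moved in opposite directions for PRK and AT5G17630. Over the 12 arrays their Pearson correlation was -0.63 (Spearman -0.64), and -0.50 without the 2 arrays farthest from the median of PRK. SBPASE and AT5G17630 were at 0.68 (Spearman 0.51). This dropped to 0.25 without the 2 arrays farthest from the median of SBPASE and so rests on them. Those 2 arrays are the neighbouring ppi1 replicates 5 and 6. PRK and SBPASE were at -0.30 (Spearman -0.21). These 3 correlations are descriptions with no p-value, because the 12 points share the normalisation and neighbouring arrays are not shown to be independent.

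Among the 561 other features with 1 gene and a signal above the floor on all arrays, the closest to PRK by the same measure were AT4G27250 (Pearson 0.89), CUTA (0.87) and PSBY, a small subunit of photosystem II (0.86). Their log2 changes in ppi1 were 0.56, 0.21 and -0.49, so of the 3 features that followed PRK most closely within the genotypes, PSBY alone was also lower in ppi1. The closest to SBPASE were AT1G02260 (0.95), AT2G43990 (0.95) and AT1G11800 (0.94), and those closest to AT5G17630 were AT1G72540 (0.89), PRA1.B6 (0.89) and AT4G18180 (0.86). All 9 correlations are over 12 arrays, and the order depends on the measure: by Spearman correlation AT1G02260 ranked 45 for SBPASE, while PSBY ranked 1 for PRK.

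Few other genes of the surrounding pathways were measured by a feature of their own. Of 24 listed Calvin cycle loci only PRK and SBPASE were, of 6 plastid phosphate translocators only AT5G17630, and of 15 loci of the pentose phosphate pathway only AT1G12230. The thioredoxin system of the plastid had 2 of 13 loci, while 11 other envelope transporters and 14 loci of starch and sucrose synthesis had 0. Over these 6 lists, 6 of 83 loci were measured, and 3 of these are PRK, SBPASE and AT5G17630 themselves. Of the 3 others, 0 were called lower and 0 higher in limma, where 5.29% of all features were called lower and 3.15% higher. At an unadjusted p under 0.05 in the same fit there were 0 of these 3, against 741 of all 3365 features. After quantile normalisation the median log2 change of these 3 was 0.10, against 0.0050 over all features. A further 4 loci occurred only in features annotated to several genes and were not named.

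The 3 measured genes outside PRK, SBPASE and AT5G17630 did not pass the test. AT1G12230, which encodes a transaldolase, was dim, with 0.0999 to 0.930 in ppi1 (median 0.180) and 0.139 to 0.563 in WT (median 0.159), and its log2 change was 0.20 (SE 0.556, adjusted p = 0.922 in limma). Its ppi1 signal was lower in 5 of 6 replicate numbers and higher in replicate 6, where ppi1 read 0.930 and WT 0.170. AT2G04700, the catalytic subunit of the ferredoxin-thioredoxin reductase that passes reducing power from ferredoxin to thioredoxins, was at 0.474 to 0.693 in ppi1 (median 0.593) and 0.593 to 0.720 in WT (median 0.667), a log2 change of -0.18 (SE 0.0896, adjusted p = 0.280 in limma). NTRC, a thioredoxin reductase of the plastid that draws on NADPH, was at 0.821 to 1.01 in ppi1 (median 0.889) and 0.746 to 0.998 in WT (median 0.801), a log2 change of 0.10 (SE 0.0877, adjusted p = 0.589 in limma). The groups overlapped for each of these 3 genes.

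How far the 3 genes differed between genotypes also depended on how the arrays were scaled. On the deposited scale the median feature was 0.206 higher in ppi1 on the log2 scale, and PRK was at -0.68, AT5G17630 at -0.44 and SBPASE at 0.06. Relative to that median, these values were -0.88, -0.65 and -0.15. The calls over all features also shifted, with 106 higher and 178 lower in ppi1 after quantile normalisation, 805 and 104 on the deposited scale, and 80 and 336 with median scaling. With median scaling PRK was at -0.95, AT5G17630 at -0.71 and SBPASE at -0.22. PRK and AT5G17630 were negative under each scaling and fit tried, and the direction of SBPASE turned on the deposited scale.

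**Figure D4:**
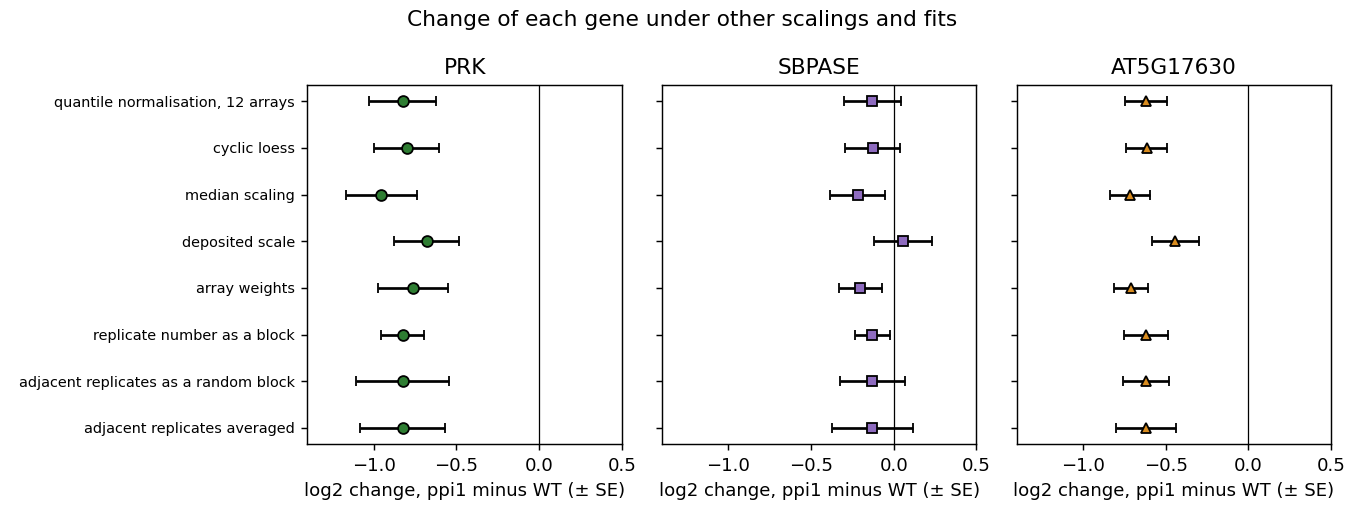
Log2 change, ppi1 minus WT, ± SE for the 3 genes under 8 scalings and fits, with quantile normalisation over 12 arrays in the top line. PRK and AT5G17630 stay negative throughout, from -0.95 to -0.68 and from -0.71 to -0.44, and SBPASE lies between -0.22 and 0.06.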

How the data were processed

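The authors deposited a linear intensity for each feature on each array. The sources used here do not state their background correction or scaling. Groups and replicate numbers came from the sample titles. The 74 features at 0 on every array were left out. Intensities were quantile-normalised between arrays, set to a floor of 0.118 (the 5th percentile of positive values) and taken to log2. The contrast of ppi1 and WT was fitted over 12 arrays without covariates (limma 3.58.1, R 4.3.3), and p-values were Benjamini-Hochberg adjusted over all features. The fit was tested on simulated data.

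Gene names came from a platform annotation dated 2016 and from the RefSeq gene table of TAIR10.1, which lacks 2 of the 692 identifiers of features with 1 gene. No coordinates are given. A feature may also pick up relatives of its gene.

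Named genes are the 3 genes, the measured genes of the 6 pathway lists, and for each gene the 3 features closest to it in deviations from group means. The genes and lists were chosen with earlier results of these data known.

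Same-numbered ppi1 and WT arrays correlated at 0.379 to 0.590 in their deviations, each best with its own number, so the numbers were taken to pair arrays. This pairing comes from the data, not the labels. The alternatives were other scalings, an offset, a filter on dim features, other variance models, array weights, the replicate block, neighbouring replicates averaged or as a random block, an exact permutation test and leaving out each array.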

Additional observations from a re-analysis of the deposited data

Results flagged for a closer look

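Dixon's test was run on the 6 ppi1 values and the 6 WT values of each of the 6 measured pathway genes, 12 groups in all, and about 1 group in 20 stands out by chance. It marked 2 arrays. One was ppi1 replicate 1 for PRK, whose signal of 1.35 stood above a range of 0.653 to 0.823 on the remaining ppi1 arrays. The other was WT replicate 4 for AT1G12230, whose signal of 0.563 stood above a range of 0.139 to 0.258 on the remaining WT arrays, a gene with values near the floor of 0.118.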

How the results depend on the processing

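Against 284 features called (106 higher and 178 lower in ppi1), the deposited scale gave 909 (805 and 104), median scaling 416 (80 and 336), the replicate block 517 (250 and 267) and neighbouring replicates as a random block 99 (28 and 71). Averaging neighbouring replicates gave 4 in limma (398 at an unadjusted p under 0.05), or 0 with the replicate block of the averaged sets (601 at an unadjusted p under 0.05), while fits without 1 array ranged from 222 to 277. Of the 3 genes, 2 were called, which became 0 with neighbouring replicates averaged, with or without the block (2 at an unadjusted p under 0.05 in limma each time), and 1, AT5G17630, as a random block and in the exact permutation test. The permutation test called 205 features (72 higher and 133 lower). Those 133 are as many as had every ppi1 array below every WT array, so its calls repeat the overlap of the groups and are no separate support. Fits without 1 array called 1 to 2 of the 3 genes, as PRK lost its call without WT replicates 1, 2, 5 or 6 or ppi1 replicates 3, 4, 5 or 6. Averaging leaves 3 values a group. Apart from this and the permutation test, the cause of the shifts was not tested. The replicate block changed no call of the 3 genes. Their log2 changes moved by less than 1 SD of the arrays under the 23 alternatives, with 22 of 23 negative for SBPASE and 23 of 23 for PRK and AT5G17630. On the deposited scale AT5G17630 and SBPASE still moved by more than the SE of their change. AT5G17630 went from -0.62 (SE 0.125) to -0.44, and SBPASE from -0.13 (SE 0.170) to 0.06. Without single arrays, PRK ranged from -0.97 to -0.75, AT5G17630 from -0.69 to -0.55 and SBPASE from -0.25 to -0.06. The number of arrays, at most 6 a group, limits the precision.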
